A study of Mus musculus with 20 samples.

Results

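The genes described here are 8 brakes on MAP kinase signalling: the phosphatase genes Dusp1, Dusp4, Dusp5, Dusp6 and Dusp14, the Sprouty genes Spry2 and Spry4, and the Sprouty-related gene Spred1. They were chosen by name as rows of the array whose annotation gives that symbol and no other, and each had 1 transcript cluster, the set of probes for 1 gene, so that 8 of 28853 transcript clusters and 8 of 19938 genes paired alone with one are members. The study asked which expression changes during conditioned fear (CF) memory depend on the adenylyl cyclases that calcium stimulates. Amygdala and hippocampus were punched from DKO mice, which lack both AC1 and AC8, and from WT mice, at baseline, directly after a CF training trial with 1 foot shock (0 hr), 1 hr and 48 hr later, or at 1 wk, following a CF testing trial. The 20 arrays give 1 array for each region, genotype and time point, and the RNA on each is a pool of 5 to 10 mice, so that 5 arrays stand for each of the 4 groups of region and genotype.

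All animals were C57BL/6 males aged 2 months. The DKO mice were littermates of mice with an inducible forebrain AC8 transgene on the same double knockout background in which tetop-AC8 alone or CaMKII-tTA alone may have been present, with doxycycline given until weaning, while the WT mice were not their littermates. Baseline animals received no training or shock. The values are log2 expression values after RMA normalization, and a difference of 1 on this scale is a doubling. The number of arrays limits the precision, and in pooled tissue fewer cells of a type and less RNA per cell cannot be told apart.

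ERK, the MAP kinase that synaptic activity and growth factors switch on through Ras, induces several of its own inhibitors, so that a burst of activity is followed by their synthesis. The dual-specificity phosphatases remove the activating phosphates from MAP kinases, some in the nucleus and some in the cytoplasm. Sprouty and Spred proteins act upstream, where they restrain the step from receptor tyrosine kinases to Ras and Raf. In neurons the pathway is required for lasting forms of fear memory, and Dusp1 in particular is known as an immediate early gene that responds to calcium and cyclic AMP.

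Because cyclic AMP acts on promoters through the CRE, promoters of members were searched for this element and for other response elements. A RefSeq (GRCm38.p6) window of 250 bases before to 50 bases after the start was searched for 6 of the members. These were Dusp1, Dusp5, Dusp6, Dusp14, Spry2 and Spred1, while Dusp4 and Spry4 were not searched. The window of Dusp1, at chr17:26508423-26508722 on the minus strand, and that of Dusp5, at chr19:53528895-53529194 on the plus strand, are printed 5′ to 3′ on the gene's strand because they were the only windows of the 6 with a match. Capitals mark the CRE and a separate CRE core in Dusp1, and a pair of adjoining CArG boxes, the element bound by serum response factor, and a CRE core in Dusp5.
Dusp1: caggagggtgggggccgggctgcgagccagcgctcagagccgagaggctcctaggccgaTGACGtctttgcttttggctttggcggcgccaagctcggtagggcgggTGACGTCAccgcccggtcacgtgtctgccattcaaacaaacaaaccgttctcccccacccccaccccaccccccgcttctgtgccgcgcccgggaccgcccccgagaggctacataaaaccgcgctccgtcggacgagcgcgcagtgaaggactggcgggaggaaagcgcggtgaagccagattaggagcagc
Dusp5: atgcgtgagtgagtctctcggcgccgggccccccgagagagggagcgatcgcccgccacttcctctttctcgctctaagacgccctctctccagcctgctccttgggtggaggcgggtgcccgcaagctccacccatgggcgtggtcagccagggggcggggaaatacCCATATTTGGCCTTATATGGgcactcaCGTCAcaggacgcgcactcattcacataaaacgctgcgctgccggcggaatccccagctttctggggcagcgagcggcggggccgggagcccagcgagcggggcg

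The full CRE, TGACGTCA, stood 143 to 136 bases before the start of Dusp1 and was held by 1.79% of all 32851 promoter windows. The CRE core, TGACG, which the full CRE contains on both strands, was also found apart from it 191 to 187 bases before the start, and 20.8% of all windows hold a core. The CArG boxes of Dusp5 lay 82 to 73 and 72 to 63 bases before the start, and 1.63% of all windows hold one. The EGR site GCGNGGGCG (5.55% of all windows), the AP-1 site TGANTCA (7.81%) and the E26 site CCGGAAGT (3.89%) were in none of the 6 windows on either strand, and Dusp6, Dusp14, Spry2 and Spred1 held none of the 6 motifs. A match is a string of letters and not a measured binding site.

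The deleted genes fitted their labels. Adcy8, which encodes AC8, averaged 5.65 ± 0.19 in DKO amygdala against 7.10 ± 0.11 in WT amygdala, and 5.41 ± 0.23 in DKO hippocampus against 7.41 ± 0.21 in WT hippocampus (SD, n = 5 each). Adcy1, which encodes AC1, averaged 7.65 ± 0.11 in DKO amygdala against 8.21 ± 0.18 in WT amygdala, and was also lower on every DKO array than on any WT array of the hippocampus. The medians of the 20 arrays lay between 6.64 and 6.83, and pairs of arrays correlated at 0.983 to 0.997 across transcript clusters.

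The clearest differences among the members lay between the regions. With all 20 arrays, 4 of 8 members passed the limma test of amygdala against hippocampus at an adjusted p of 0.05, 2 of them higher and 2 lower in the amygdala. Dusp1 and Spred1 were higher in the amygdala, and Dusp4 and Dusp6 were higher in the hippocampus, by 1.13-fold to 1.25-fold. The regions differ widely in general, since 5117 of 28853 transcript clusters (17.7%) passed the same test, 8.78% higher and 8.95% lower in the amygdala. The arrays of the 2 regions overlapped for each of the 8 members, whereas 3.8% of all transcript clusters did not overlap.

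Dusp1 encodes an inducible nuclear phosphatase that acts on ERK, JNK and p38. Its log2 values at baseline, 0 hr, 1 hr, 48 hr and 1 wk were 7.06, 7.38, 7.36, 7.01 and 7.14 in DKO amygdala and 6.98, 7.39, 7.43, 7.20 and 7.19 in WT amygdala. In the hippocampus they were 6.78, 7.04, 7.04, 6.85 and 6.71 in DKO mice and 6.63, 7.07, 6.95, 6.94 and 6.86 in WT mice. Amygdala arrays were thus higher than the hippocampus array of the same genotype and time point in 10 of 10 pairs, and the only overlap came from amygdala arrays at baseline and 48 hr against hippocampus arrays at 0 hr and 1 hr. The mean was 7.21 ± 0.17 in the amygdala and 6.89 ± 0.15 in the hippocampus (SD, n = 10 each), a log2 difference of 0.33 (SE 0.07, limma adjusted p = 0.00115).

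Spred1, which holds neurofibromin at the membrane and so lowers Ras activity, had log2 values of 9.11, 9.20, 9.37, 8.89 and 9.23 in DKO amygdala and 9.48, 9.44, 9.66, 9.22 and 9.25 in WT amygdala. In the hippocampus its log2 values were 9.07, 9.00, 9.26, 8.88 and 9.21 in DKO mice and 8.82, 9.00, 9.16, 9.07 and 8.98 in WT mice. It was likewise higher in the amygdala in 10 of 10 pairs, where 8.74% of all transcript clusters kept 1 direction, higher or lower, in every pair, but the gap was at most 0.20 in each DKO pair. The log2 difference between the regions was 0.24 (SE 0.07, limma adjusted p = 0.0121).

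Dusp4 encodes another inducible nuclear phosphatase. Its log2 values were 6.54, 6.34, 6.25, 6.54 and 6.30 in DKO amygdala and 6.37, 6.08, 6.13, 6.43 and 6.25 in WT amygdala. In the hippocampus they were 6.58, 6.67, 6.88, 6.30 and 6.65 in DKO mice and 6.62, 6.83, 6.56, 6.64 and 6.65 in WT mice. Only the DKO hippocampus array at 48 hr fell among the amygdala values, and the amygdala was lower in 9 of 10 pairs. The log2 difference was -0.31 (SE 0.07, limma adjusted p = 0.000931).

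Dusp6 encodes the cytoplasmic phosphatase that is selective for ERK. Its log2 values were 6.68, 6.80, 6.70, 6.45 and 6.51 in DKO amygdala and 6.73, 6.68, 6.71, 6.63 and 6.58 in WT amygdala, against 6.76, 6.86, 6.95, 6.62 and 6.74 in DKO hippocampus and 6.56, 6.94, 6.98, 6.86 and 6.92 in WT hippocampus. It was lower in the amygdala in 9 of 10 pairs, the exception being the WT baseline pair. The log2 difference of -0.17 was the smallest of the 4 that passed (SE 0.06, limma adjusted p = 0.0415), and the call was lost when any of 13 of the 20 arrays was left out (adjusted p 0.0506 to 0.0866). These were the hippocampus arrays other than DKO at 48 hr and WT at baseline, the DKO amygdala arrays at 48 hr and 1 wk, and the WT amygdala arrays at 0 hr, 48 hr and 1 wk.

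The other 4 members did not pass. Dusp14, a small phosphatase without the kinase-binding domain of the others, had a log2 difference of 0.11 (95% interval 0.01 to 0.20, limma adjusted p = 0.123) and was higher in the amygdala in 8 of 10 pairs. The differences of Dusp5, a nuclear phosphatase selective for ERK, of Spry2 and of Spry4 were -0.04, -0.02 and -0.01, with 95% intervals that lay within -0.18 and 0.12.

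**Figure D1:**
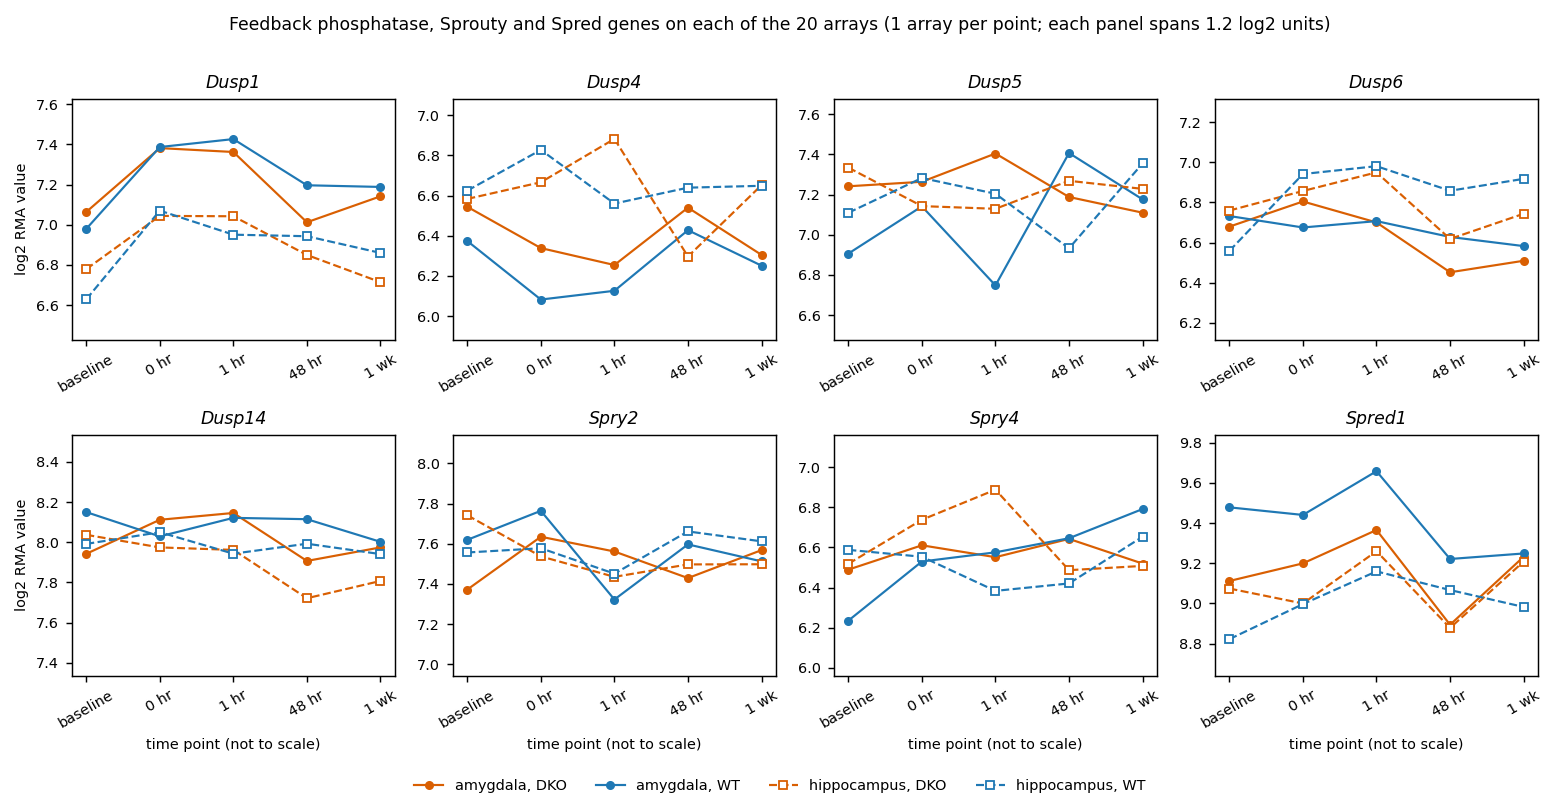
Log2 RMA value (vertical axis) of each of the 8 genes on each of the 20 arrays by time point (horizontal axis, spaced evenly), 1 array per point, with DKO in orange, WT in blue, amygdala as filled circles and hippocampus as open squares. Dusp1 sits higher in the amygdala and is lowest or near its lowest at baseline in each group, while Dusp4 sits higher in the hippocampus on all arrays but 1.

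Among other genes of the pathway, region differences ran in both directions. Of the 6 remaining MAP kinase phosphatases measured, 2 were lower in the amygdala, Dusp16 (log2 difference -0.33) and Dusp7 (-0.30), and 0 were higher. Of 14 further atypical dual-specificity phosphatases, 3 were higher, Dusp22 (0.34), Dusp26 (0.27) and Dusp15 (0.27), and 1 was lower, Dusp3 (-0.16). Of the other 4 Sprouty and Spred genes 1 passed, Spred2, at -0.36 and -0.29 on its 2 transcript clusters, the opposite direction to Spred1.

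Of 7 other feedback genes of the pathway, 2 were lower in the amygdala, the receptor inhibitor Errfi1 (-0.43) and the Ras GTPase-activating gene Rasa1 (-0.39). In the Ras-ERK cascade itself, 15 of 21 genes were measured alone, of which 3 were lower (Rasgrf1 at -0.49, Ksr1 at -0.25 and Rasgrp1 at -0.25) and 1 was higher (Shc3 at 0.16). The exchange factor genes Rasgrf1 and Rasgrp1 load Ras with GTP. Of 17 measured genes for target kinases and transcription factors of ERK, 4 were higher and 4 lower, among them the ETS factor genes Etv1 (1.01 and 0.94 on 2 transcript clusters) and Etv5 (0.41 and 0.32) and the kinase gene Rps6ka5 (0.56), which were higher. The 4 lower ones had smaller differences than these.

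Of 10 measured JNK and p38 kinase genes, Mapk8 was higher (0.24), and Mapk10 (-0.44 on 1 of its 2 transcript clusters) and Map2k6 (-0.41) were lower. Of 17 measured receptor tyrosine kinase genes, 6 were higher and 5 lower, including Erbb4 at 0.74, Met at 0.29 and Kit at 0.27 as well as Ntrk3 at -0.32 and Fgfr1 at -0.30. The medians of these 8 lists lay between -0.04 and 0.06, and the median of the members was -0.02, against 0.02 over all transcript clusters.

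Markers of other regions and cells differed in the same contrast. The 8 striatal marker genes averaged 8.77 to 9.69 on amygdala arrays and 7.84 to 8.15 on hippocampus arrays, and 7 of 8 passed as higher in the amygdala. Thalamic markers averaged 6.87 to 7.19 on amygdala arrays and 7.42 to 8.37 on hippocampus arrays (7 of 8 lower), and oligodendrocyte markers 7.83 to 8.55 on amygdala arrays and 8.38 to 8.74 on hippocampus arrays (7 of 7 lower). Astrocyte markers averaged 8.41 to 8.76 on amygdala arrays and 8.79 to 8.97 on hippocampus arrays (3 of 7 lower), and endothelial markers 7.12 to 7.32 on amygdala arrays and 7.28 to 7.53 on hippocampus arrays (3 of 7 lower). Of the hippocampal markers 7 of 9 were lower in the amygdala and of the amygdala markers 7 of 10 were higher and 1 was lower. The hippocampal marker Wfs1 was higher in the amygdala, by 0.69 on the log2 scale (limma adjusted p = 5.08e-06). The part of neighbouring tissue or of cell composition in the differences of the 4 members was not tested.

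In the comparison of the genotypes, which asks what loss of the 2 cyclases does at all time points together, 0 of 8 members passed the limma test at an adjusted p of 0.1 in either region. Of 28853 transcript clusters 28 (0.097%) passed in the amygdala, and 34 (0.118%) passed in the hippocampus, 5 of them higher in DKO. The hippocampal count became 73 (21 higher) without the WT hippocampus array at 1 hr and 55 (26 higher) with arrays centred on their median, with 0 members in each. At an unadjusted p of 0.05, 1 member would pass in the amygdala and none would in the hippocampus (0 of 8). Of all transcript clusters 1968 (6.82%) would in the amygdala and 3294 (11.4%) in the hippocampus. The test per transcript cluster named in the methods called 0 of 8 members in both regions after the same adjustment. It called 20 of 28853 transcript clusters in the amygdala and 26 in the hippocampus. Each member's DKO and WT arrays overlapped in both regions, where 0.863% of transcript clusters did not overlap in the amygdala and 1.73% in the hippocampus.

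The largest of these differences belonged to Spred1. It averaged 9.16 ± 0.17 in DKO amygdala and 9.41 ± 0.18 in WT amygdala (SD, n = 5 each), a log2 difference of -0.25 (95% interval -0.46 to -0.03, limma adjusted p = 0.646). The DKO array was the lower one at each of the 5 time points, by the least at 1 wk. In the hippocampus it averaged 9.08 ± 0.15 in DKO and 9.01 ± 0.12 in WT mice, a difference of 0.08.

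Tested directly, the DKO minus WT difference of Spred1 was lower in the amygdala than in the hippocampus, at -0.33 on the log2 scale (95% interval -0.60 to -0.05, limma adjusted p = 0.260). None of the 8 members passed this test which 3 of 28853 transcript clusters passed (0.0104%). At an unadjusted p of 0.05, 1 of 8 members would pass, and 5023 transcript clusters (17.4%). Over the same arrays the striatal markers averaged 8.77 to 9.03 in DKO amygdala and 8.96 to 9.69 in WT amygdala, with 8 of 8 lower in DKO and 0 called, and thalamic markers averaged 7.90 to 8.37 in DKO hippocampus and 7.42 to 7.96 in WT hippocampus, with 8 of 8 higher and 1 called. Their part in the values of Spred1 was not tested.

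The remaining members differed less between the genotypes. In the amygdala Dusp5 averaged 7.24 ± 0.11 in DKO and 7.08 ± 0.26 in WT mice (difference 0.17), and Dusp4 averaged 6.40 ± 0.14 in DKO and 6.25 ± 0.15 in WT mice (difference 0.14). In the hippocampus Spry4 averaged 6.63 ± 0.18 in DKO and 6.52 ± 0.11 in WT mice (difference 0.11), and Dusp14 averaged 7.90 ± 0.13 in DKO and 7.98 ± 0.04 in WT mice (difference -0.08). Dusp1 differed by -0.04 in the amygdala and by -0.0047 in the hippocampus. For the 8 members the 95% intervals reached from -0.46 to 0.39 in the amygdala and from -0.24 to 0.29 in the hippocampus, so that differences inside these intervals could not be told from none with 5 arrays a group. None of the genes on the 8 pathway lists passed in either region.

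**Figure D2:**
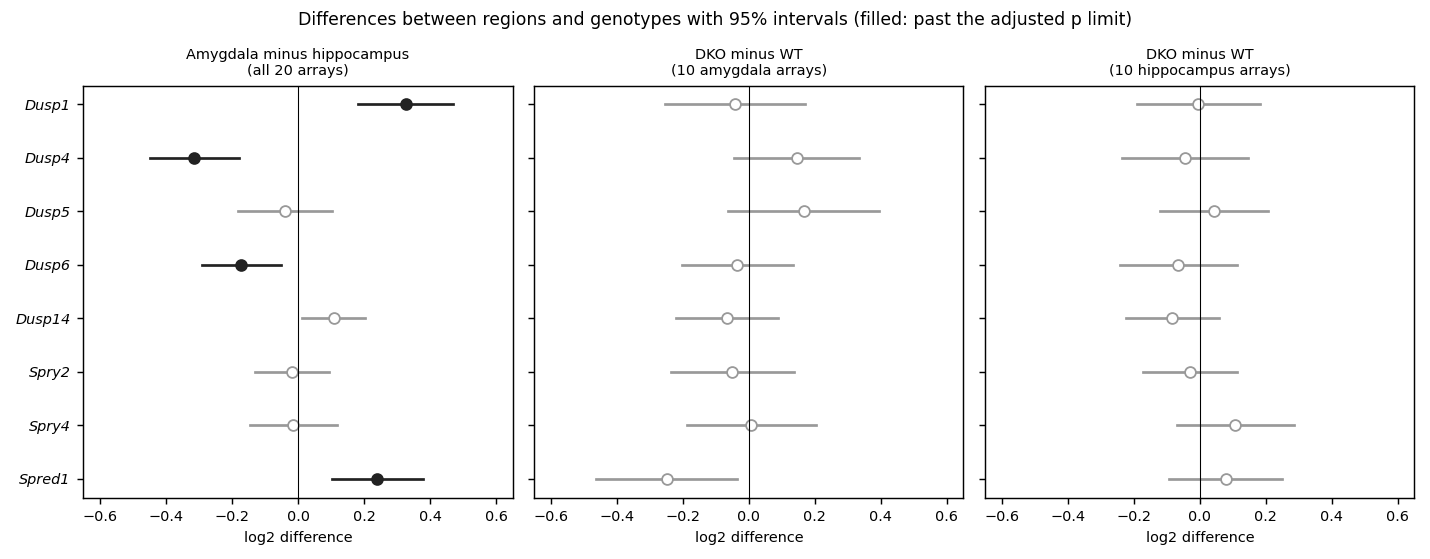
Log2 difference (horizontal axis) of each of the 8 genes between amygdala and hippocampus over all 20 arrays (left) and between DKO and WT mice in the amygdala (middle) and the hippocampus (right). Points are limma estimates with 95% intervals, and filled points are past the adjusted p limit: 4 of 8 genes between the regions and 0 of 8 between the genotypes.

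For the time course after training, the 4 groups of region and genotype served as the only replicates of a time point. None of the 8 members passed the limma test at an adjusted p of 0.05 at 0 hr, 1 hr, 48 hr or 1 wk. Few transcript clusters did at all. At 0 hr 1 passed (0.00347%), the 1 hr arrays gave 7 (0.0243%), those of 48 hr gave 0 (0%), and 1 passed at 1 wk (0.00347%). Without adjustment 1 member lay under a p of 0.05 at 0 hr and 2 at 1 hr, against 745 (2.58%) and 1778 (6.16%) transcript clusters in all. At 48 hr and 1 wk 0 members lay under it, against 1036 (3.59%) and 900 (3.12%) transcript clusters.

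Dusp1 was the member under that limit at 0 hr and one of those at 1 hr. Relative to the baseline array of its group, it was higher at 0 hr by 0.32 in DKO amygdala, 0.41 in WT amygdala, 0.27 in DKO hippocampus and 0.44 in WT hippocampus. At 1 hr the log2 changes were 0.30 in DKO amygdala, 0.45 in WT amygdala, 0.26 in DKO hippocampus and 0.32 in WT hippocampus. All 8 arrays of these time points thus lay above their baseline, by 0.26 to 0.45, while 2.1% of all transcript clusters were above baseline on all 8. Dusp1 was the only member to do so. As an observation made after its values were seen, 2 of the 28853 transcript clusters had a smallest early change at least as large, Dusp1 and the small nucleolar RNA gene Snord14e. The WT baseline array was the lowest Dusp1 array of its region, at 6.98 in the amygdala and 6.63 in the hippocampus. The WT changes thus rest on 1 low array in each region.

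The mean change of Dusp1 was 0.36 at 0 hr (SE 0.07, limma adjusted p = 0.289) and 0.33 at 1 hr (SE 0.07, limma adjusted p = 0.157). By 48 hr it was 0.14 and by 1 wk 0.11, each above baseline in 3 of 4 groups. With a further quantile normalization the change at 1 hr was 0.33 and passed (adjusted p = 0.0265), while the one at 0 hr did not (adjusted p = 0.0547), so that the call at 1 hr depends on the normalization. The 4 groups share their baseline arrays between the time points, and the comparisons at 0 hr and 1 hr are therefore not separate evidence.

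Choroid plexus markers also differed between the time points. Their mean lay between 8.25 and 8.70 on the baseline arrays, 7.15 and 8.44 at 0 hr, and 7.29 and 8.50 at 1 hr, with 8 of 8 genes lower than baseline at both times on average and 0 called. At 0 hr they were below baseline in all 4 groups, with 7.15 against 8.45 at baseline in DKO amygdala, 7.36 against 8.40 in WT amygdala, 8.44 against 8.70 in DKO hippocampus and 8.22 against 8.25 in WT hippocampus. At 1 hr they were at 8.42 in DKO amygdala and 8.50 in WT hippocampus, arrays on which Dusp1 was 0.30 and 0.32 above baseline. They were at 7.29 in WT amygdala and 7.34 in DKO hippocampus, where Dusp1 was 0.45 and 0.26 above baseline. The part of choroid plexus in the values of Dusp1 was not tested.

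**Figure D3:**
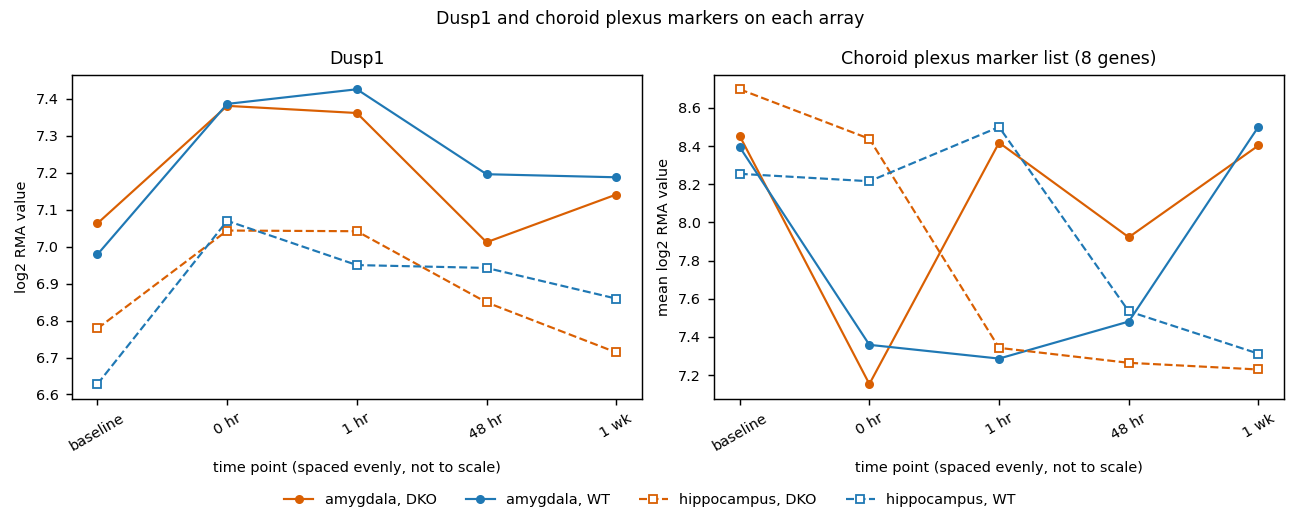
Log2 RMA value of Dusp1 (left) and mean log2 value of 8 choroid plexus marker genes (right) on each array by time point (spaced evenly), with DKO in orange, WT in blue, amygdala as filled circles and hippocampus as open squares. Dusp1 is above baseline in all 4 groups at 0 hr and 1 hr, by 0.26 to 0.45, while the markers, between 7.15 and 8.70, are below baseline in all 4 groups at 0 hr and 48 hr.

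Spred1 was the other member at 1 hr. It lay above baseline in 4 of 4 groups, by 0.18 to 0.34, with a mean change of 0.24 (95% interval 0.06 to 0.41, limma adjusted p = 0.774). At 1 hr 12.4% of all transcript clusters lay above baseline in 4 of 4 groups, and at 0 hr 8.02% did. At 0 hr Spred1 was above baseline in 2 of 4 groups only. Dusp6 had a mean change of 0.15 at 1 hr, with 0.02 in DKO amygdala, -0.03 in WT amygdala, 0.19 in DKO hippocampus and 0.42 in WT hippocampus. The WT hippocampus baseline array was the lowest hippocampus array for Dusp6. All later arrays of that group lay above it, by 0.30 to 0.42, so its change at 1 hr rests on 1 low array. Spry2, a Sprouty gene that ERK induces, had a mean change of -0.13 at 1 hr and values below baseline in 3 of 4 groups.

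Within the amygdala the limma test with 2 arrays a time point passed 0 of 8 members, and 0 transcript clusters at 0 hr, 48 hr and 1 wk (0% each) and 1 at 1 hr (0.00347%). Within the hippocampus it passed 0 members and 0 transcript clusters at each of the 4 times (0%). In the hippocampus at 1 hr, Dusp6 was 0.31 above baseline (unadjusted p = 0.0208), Dusp1 0.29 (unadjusted p = 0.0167) and Spred1 0.26 (unadjusted p = 0.0462), and the adjusted p of each was at least 0.795. The value of Dusp6 includes its low WT hippocampus baseline array. In the amygdala at 1 hr the mean change was 0.37 for Dusp1 and -0.27 for Dusp4. At an unadjusted p of 0.05, 1 member lay under the limit at 0 hr in each region, at 1 hr 2 did in the amygdala and the hippocampus had 3, and 0 did at the later times. Of all transcript clusters 368 (1.28%) in the amygdala and 662 (2.29%) in the hippocampus lay under it at 0 hr. At 1 hr 452 (1.57%) did in the amygdala and 1693 (5.87%) in the hippocampus. In the amygdala the shares were 4.59% at 48 hr and 1.43% at 1 wk, and in the hippocampus 5.59% and 4.35%.

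The test of a difference between DKO and WT mice in the change from baseline, with the regions as replicates, passed 0 members and 0 transcript clusters (0%) at each of the 4 times, though at 1 wk 854 transcript clusters, 0 of them members, passed without the WT hippocampus baseline array. At 48 hr all 8 members had a lower change in DKO than in WT mice, with a median of -0.19, where the median of all transcript clusters was -0.15. This depended on scaling, since 5 of 8 were lower after a further quantile normalization and 4 of 8 with arrays centred on their median, where the median of all transcript clusters was -0.00 and 0.04. The lowest of these values were those of Dusp6, -0.28, and of Dusp1, -0.26 (adjusted p = 0.401). Both include low WT baseline arrays, that of the hippocampus for Dusp6 and those of both regions for Dusp1. The same test between the regions passed 0 members and 0 transcript clusters (0%) at each of the 4 times. There the change of Dusp4 at 0 hr was lower in the amygdala than in the hippocampus, at -0.39 (95% interval -0.78 to -0.01, adjusted p = 1.00). It was the only member under an unadjusted p of 0.05 in these 8 comparisons. The share of all transcript clusters under that limit was 1.16% in the comparison of Dusp4 and 1.01% to 17.9% over the 8.

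On single arrays, where a change from baseline has no replicate, 0 of 128 member changes reached 1.5-fold in either direction. The share of all transcript clusters that did was, at 0 hr, 1 hr, 48 hr and 1 wk, 0.825%, 0.575%, 1.42% and 1.27% in DKO amygdala and 0.912%, 0.579%, 3.32% and 4.1% in WT amygdala. In the hippocampus the shares at these times were 0.246%, 0.395%, 0.6% and 0.932% in DKO mice and 0.319%, 1.11%, 1.24% and 0.627% in WT mice. The largest member change was that of Spry4 in WT amygdala at 1 wk, 0.56 or 1.47-fold. It was followed by Dusp5 in WT amygdala at 48 hr, 0.50 or 1.42-fold, and then by Dusp1 in WT amygdala at 1 hr, 1.36-fold.

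The values behind these changes were as follows. Spry4, which inhibits Ras signalling downstream of growth factor receptors, had log2 values at baseline, 0 hr, 1 hr, 48 hr and 1 wk of 6.49, 6.61, 6.55, 6.64 and 6.52 in DKO amygdala and 6.24, 6.53, 6.58, 6.65 and 6.79 in WT amygdala. In the hippocampus it had 6.52, 6.74, 6.89, 6.49 and 6.51 in DKO mice and 6.59, 6.55, 6.38, 6.42 and 6.65 in WT mice. The WT amygdala baseline array was the lowest of all 20 for this gene, so the values above baseline in that group rest on 1 low array.

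Dusp5, whose window holds the CArG boxes, had log2 values of 7.24, 7.26, 7.40, 7.19 and 7.11 in DKO amygdala and 6.91, 7.14, 6.75, 7.41 and 7.18 in WT amygdala. In the hippocampus it had 7.33, 7.14, 7.13, 7.27 and 7.23 in DKO mice and 7.11, 7.28, 7.20, 6.93 and 7.36 in WT mice. Its DKO arrays spread less widely than its WT arrays in both regions, with an SD of 0.11 in DKO and 0.26 in WT amygdala, and no time point stood apart in all groups.

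**Figure D4:**
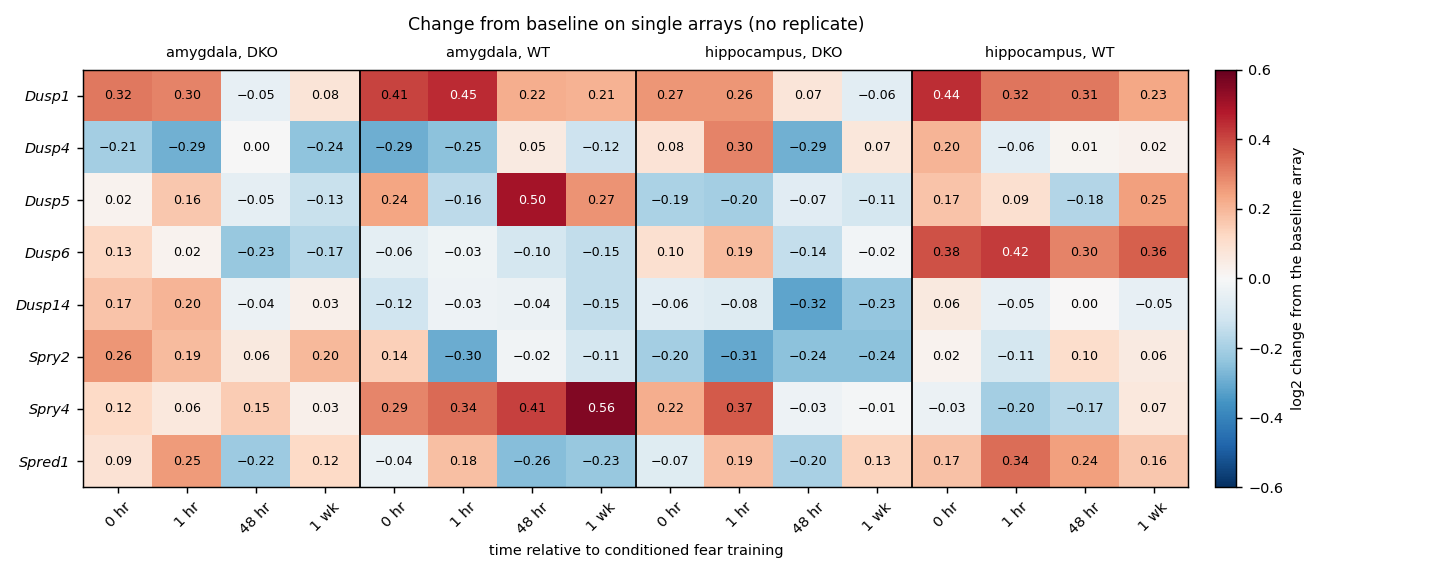
Log2 change from the baseline array of the same region and genotype (colour and printed value) for each of the 8 genes (rows) on each of the 16 later arrays (columns, grouped by region and genotype), with no replicate. Dusp1 is above baseline at 0 hr and 1 hr in each group, and the largest single value is 0.56 for Spry4 in WT amygdala at 1 wk.

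Spry2 lay between 7.32 and 7.76 in the amygdala and between 7.44 and 7.74 in the hippocampus, and Dusp14 between 7.91 and 8.15 in the amygdala and between 7.72 and 8.05 in the hippocampus. The lowest arrays of Dusp14 were the DKO hippocampus arrays at 48 hr and 1 wk, 0.32 and 0.23 below their baseline. Spry2 was below baseline at each later time point in DKO hippocampus, by 0.20 to 0.31, and above it at each in DKO amygdala. The DKO hippocampus baseline array was the highest hippocampus array for Spry2, and the DKO amygdala baseline array the lowest of its group. Both patterns thus rest on 1 baseline array each. The later values were 7.44 to 7.54 in DKO hippocampus and 7.43 to 7.63 in DKO amygdala.

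None of the genes on the 8 pathway lists passed at any time point either. At 1 hr the medians of the lists lay between -0.02 and 0.10, with single genes between -0.26 and 0.40, and the median of the members was 0.08, against 0.00 over all transcript clusters. At 0 hr the median of the members was 0.06 against 0.03 over all transcript clusters, and 7 of 8 members had a positive mean change. This count moved with scaling, since 2 of 8 were lower than baseline after a further quantile normalization and also with arrays centred on their median. The median of all transcript clusters was then 0.0009 and -0.004.

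To describe how the members varied together, deviations from the mean of each group of region and genotype were correlated over the 20 arrays, which share their time points, pools and normalization. Dusp1 and Dusp6 correlated at 0.65, Dusp6 and Spred1 at 0.65 and Dusp1 and Spred1 at 0.48, while Dusp5 and Spred1 correlated at -0.36. Of 21781 candidate transcript clusters, those most like Dusp1 were Jmjd6 (0.87) and A430033K04Rik (0.84), and those most like Spred1 were Ap1g1, an adaptor protein subunit (0.96), and Homer1, a postsynaptic scaffold gene (0.94). For Dusp6 they were Zbtb24 (0.87) and Bhlhe40 (0.85), for Dusp4 Clec4d (0.83) and Mettl11b (0.82), and for Dusp5 Foxp3 (0.86) and Tns1 (0.86). Parm1 (0.82) and Igfbp7 (0.80) were most like Dusp14, Btbd19 (0.80) and Kcnk7 (0.79) most like Spry2, and Piezo1 (0.83) and Zbtb17 (0.82) most like Spry4. All were picked as the highest of 21781 candidates, and how high such a pick would run by chance was not tested.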

How the data were processed

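Total RNA from amygdala and hippocampus micropunches was pooled from 5 to 10 mice per array and hybridized to Affymetrix Mouse Gene ST arrays. The authors normalized the arrays by RMA in Affymetrix Expression Console (versions and build not given in the sources used here) and deposited log2 values of 28853 transcript clusters, 21789 paired with 1 gene symbol, 1621 with several and 5443 with none. The medians of the deposited arrays ran from 6.64 to 6.83.

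Groups came from the sample titles. Differences were tested with limma 3.58.1 in R 4.3.3 (lmFit, eBayes, Benjamini-Hochberg over all transcript clusters), at an adjusted p of 0.1 for genotype and 0.05 otherwise, with the 5 time points as replicates of a genotype in each region, as in the methods. P-values therefore measure the spread between arrays, time included. Whether the regions of 1 time point shared their mice is not given. Fits were checked on simulated data. Alternatives were normalization, filter, variance model, test, threshold, blocks and left-out arrays. The alternatives for the tests within a region and of differences in the change from baseline were chosen after seeing the data. The members and gene lists were chosen with earlier results of these data known. Named were all members and, for each member, the 2 genes of most similar pattern. Of each list the genes of up to 5 transcript clusters past a test, those with the largest difference, were named. The deposited table holds no comparison columns, the fold changes in the paper's supplementary tables were not used, and promoters came from RefSeq.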

Additional observations from a re-analysis of the deposited data

Results flagged for a closer look

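None of the 32 sets of 5 arrays, each a member in 1 region and genotype, had an array far from the others by the Dixon test, where chance alone would give about 1.6.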

How the results depend on the processing

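Of 25 member differences picked from those given one by one, 22 kept their sign under each alternative run. The exceptions, on leaving out 1 array, were the region differences of Dusp5 (-0.0815 to 0.00087), Spry2 (-0.0438 to 0.0113) and Spry4 (-0.0441 to 0.0254). Of the 167 remaining member differences, 66 changed sign in at least 1 setting and 0 passed the limit in any. Most of the 167 are given only within a range, but the genotype differences of Dusp1 and some others given singly are among them. The region calls of Dusp1, Dusp4 and Spred1 held on leaving out any array, with adjusted p up to 0.00320, 0.00262 and 0.0279. When only transcript clusters above the median level were tested, 2 members passed between the regions, since Dusp4, Dusp6 and Spry4 were left out by that filter. With a further quantile normalization 1 member, Dusp1, passed at 1 hr, and its adjusted p over all settings ran from 0.0265 to 1.000 at 1 hr and from 0.0547 to 1.00 at 0 hr. At 1.3-fold, 8 of 128 single-array changes of members passed, where 1.93% to 17.3% of all transcript clusters did on an array. Counts over all transcript clusters moved most between the genotypes in the hippocampus (34, against 25 to 73 in the alternatives) and for the difference between genotypes at 1 wk (0, against 0 to 854). With time points as a replicate block 0 members passed between the genotypes, and with genotype and time as a block 4 passed between the regions. Arrays of the same time point came from different mice of the 2 genotypes, and their deviations correlated at -0.42 to 0.20 in the amygdala and -0.14 to 0.23 in the hippocampus. Between the regions they correlated at -0.04 to 0.24 in DKO mice (4 of 5 above 0.1) and -0.39 to 0.53 in WT mice (2 of 5). With 1 array per condition, changes at single time points have no error of their own.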
